A study of Mus musculus with 8 samples.

Results

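Acetylation of histone H3 at lysine 27 (H3K27ac) was examined at 37 autophagy genes of mouse microglia. The genes were taken by name from a list of autophagy components, and each region of the deposited table was matched to them by the gene symbol given there. All 37 were found among 18707 genes, with 274 of 129304 regions. Each region is 800 bp wide. Of the 274, 72 had their centre within 1000 bp of a start site and were summed per gene as promoter signal, and 202 lay farther away and were summed as distal signal. The table gives each region to 1 gene by its nearest promoter, so a distal region need not lie in the gene it is listed under. In the RefSeq annotation 110 of the 202 distal regions overlapped the gene they were assigned to, and 60 lay over 50000 bp from its start site.

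Both groups were C57BL/6 mice aged 2 years, perfused with buffered saline before the brain was taken. WT mice carried a normal Grn gene and GrnKO mice lacked it. Grn encodes progranulin, a secreted glycoprotein that is delivered to lysosomes. Nuclei from a frozen hemibrain were fixed and sorted as PU.1+, OLIG2- and NEUN-, where PU.1 marks myeloid cells, OLIG2 the oligodendrocyte lineage and NEUN neurons, so that the sort takes any PU.1+ nucleus of the brain and not microglia alone. Each genotype had 2 H3K27ac libraries and 2 input libraries, which hold sonicated chromatin without immunoprecipitation, and each replicate pooled nuclei of 2 mice. The comparison asks how acetylation at these genes differs without Grn.

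Macroautophagy encloses cytoplasm in a double membrane that fuses with the lysosome, where the content is degraded. The ULK complex starts the process, a lipid kinase complex built on Vps34 marks the membrane with PI3P, and a pair of ubiquitin-like conjugation systems attach proteins of the ATG8 family (LC3 and GABARAP) to it. Cargo receptors such as p62, the product of Sqstm1, tie ubiquitinated cargo to ATG8 proteins, and microglia use this route for protein aggregates and damaged organelles. H3K27ac marks active promoters and enhancers and measures neither RNA nor autophagic activity.

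The H3K27ac libraries held 15491642.5 to 20030832 tags and the inputs 4078179 to 14415969. Values are tags per region at a library total of 10000000, further divided by TMM factors of 0.825 to 1.08 unless called deposited, and a floor of 3 tags equals 1.5 to 1.94 deposited scaled tags. WT replicate 1 stood apart, with 49.4% of its tags in the listed regions against 63.3 to 65.7% in the other H3K27ac libraries. The targeted gene matched the labels: at the promoter of Grn, WT libraries held 1083 and 1076 deposited scaled tags, and GrnKO libraries 7.34 and 6.49. Promoter sums over the 8 microglial markers, all 8 with a region, were 7871 and 9153 in WT and lower in both GrnKO libraries, at 6635 and 6992. In the deposited scaling they overlapped, at 6496 to 9480 in WT and 7174 to 7566 in GrnKO. The 4 of 6 border macrophage markers with a promoter region summed to 316 to 355 in WT and 371 to 474 in GrnKO. Of 5 monocyte and neutrophil markers 1 had a region, at 0 to 5.24 in WT and 18.7 to 20.4 in GrnKO, while Ccr2, Ly6c2, Ly6g and S100a9 had none. Neuronal markers reached at most 3.91, lymphocyte markers 2.74 and astrocyte markers 16.4, and oligodendrocyte markers summed to 66.3 to 101 in WT and 70.8 to 81.7 in GrnKO, against 89.5 deposited scaled tags in 1 WT input. The microglial, macrophage and monocyte sums did not overlap between genotypes, nor did those of lymphocyte markers near the floor, and their part in the results below was not tested. In these bulk samples a change in the number of nuclei of a type and a change in acetylation per nucleus cannot be told apart.

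At promoters 2 of the 37 autophagy genes rose in GrnKO and none fell in the limma fit. At an unadjusted p under 0.05, 5 promoters were higher and 0 lower (13.5% of 37, against 18.2% of all tested genes in either direction), and edgeR and DESeq2 also called 0 lower. Log2 changes are GrnKO minus WT on the log2(scaled tags + 1) scale from limma, and a gene or region is called where its Benjamini-Hochberg adjusted p over all tested features is under 0.05. Atg7, the E1-like enzyme of both conjugation systems, rose 2.77-fold, and Optn, the mitophagy receptor optineurin, rose 4.04-fold. The 2 higher genes were 5.41% of the members, against 3.57% of all 11084 tested genes, so the share of autophagy promoters that rose was near the background. Lower calls made up 1.66% of all tested genes and calls in either direction 5.23%. The table lists a distal region for 30 of the 37 genes, and the distal sum passed the filter on low tags at 26. Among these 26, Sqstm1, Tecpr1 and Atg7 rose and Uvrag and Gabarapl2 fell, at limma Benjamini-Hochberg adjusted p under 0.05. Those 3 higher genes were 11.5% of 26 against 10.9% of all 11368 genes tested for distal signal, and the 2 lower genes were 7.69% against 7.13%, both near the background (18.1% in either direction). The median log2 change of the members was 0.10 at promoters, against -0.02 over all genes, and -0.09 at distal regions, against -0.06. The members that passed are described below with the others of their role.

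**Figure D1:**
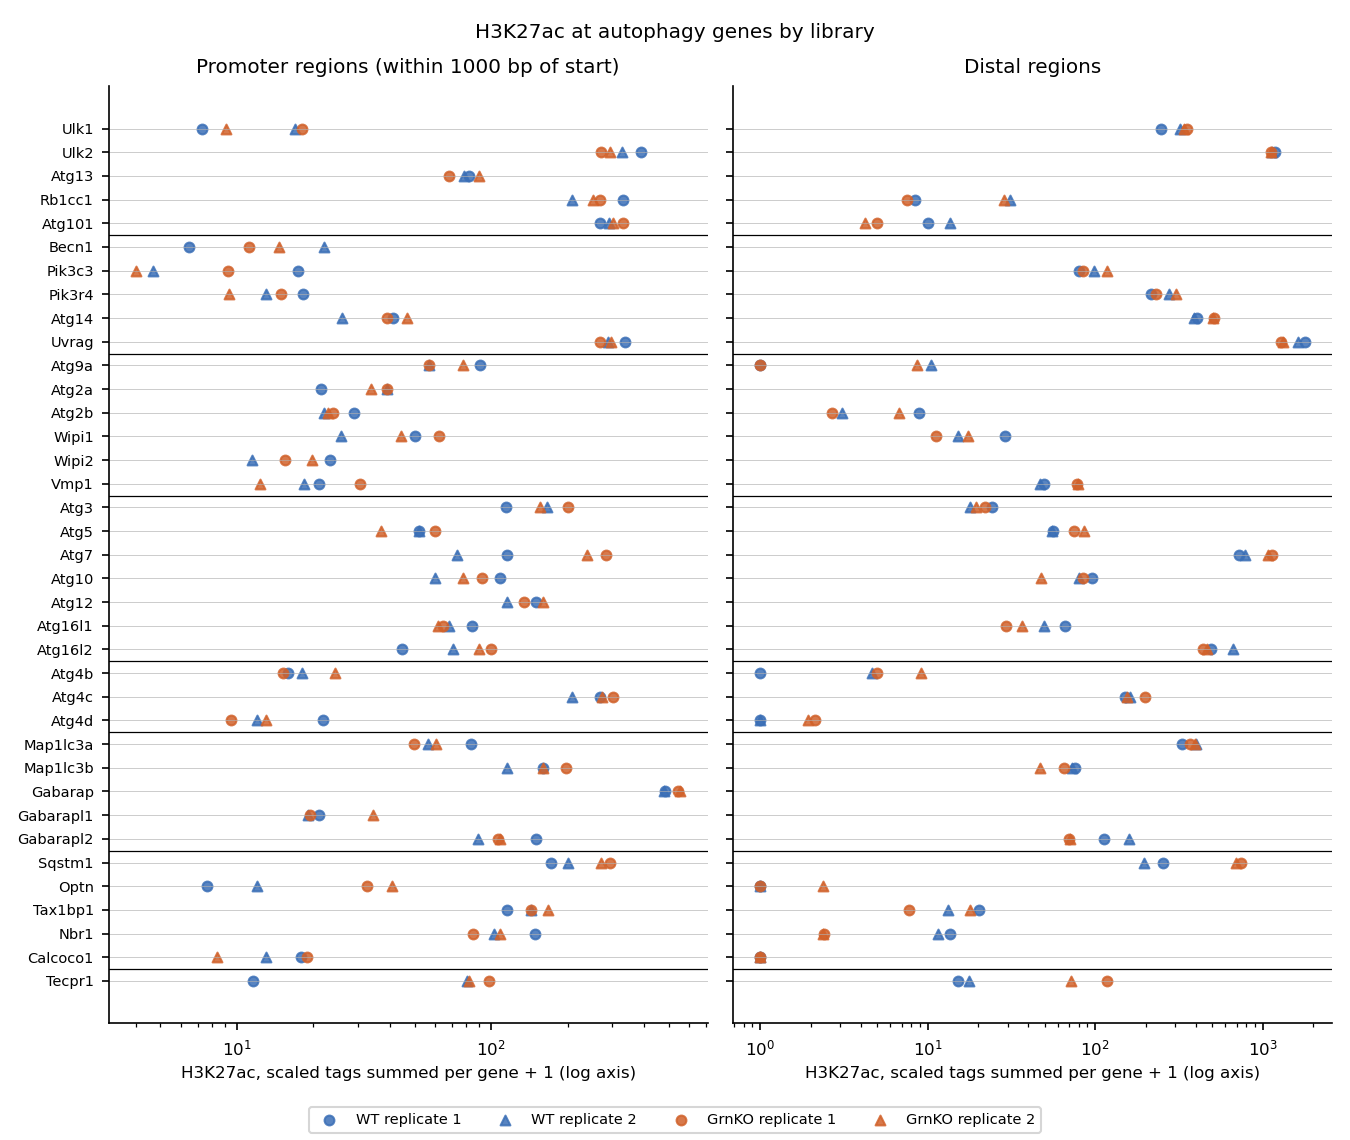
H3K27ac of each autophagy gene in each library, as scaled tags summed per gene plus 1 on a log axis, for promoter regions (left) and distal regions (right). Circles are replicate 1 and triangles replicate 2, WT in blue and GrnKO in orange, and black lines separate the roles in the order of the text. The GrnKO libraries lie above both WT libraries at 10 of 37 promoters and 7 of 26 tested distal sums (23.5% and 27.4% over all tested genes), and below both at 2 and 8 (24.6% and 30.7%). They lie to the right for Atg7 and Sqstm1 in both panels, for Optn at its promoter and for Tecpr1 at its distal regions.

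Promoter sequences are printed here for the members called in either comparison, so that the acetylated promoters can be set beside their values. The 250 bases before the start site are given 5′ to 3′ on the gene's strand from RefSeq, build GRCm38.p6, and each overlaps a region of the table. Capitals mark GGGCGG, the core of the GC box bound by SP1-type factors, or CCGCCC, the same motif on the other strand. The windows are chr11:50210821-50211070 for Sqstm1, chr2:5064118-5064367 for Optn, chr5:144223616-144223865 for Tecpr1 and chr7:99141145-99141394 for Uvrag, all on the minus strand, and chr8:111940453-111940702 for Gabarapl2 on the plus strand.
Sqstm1: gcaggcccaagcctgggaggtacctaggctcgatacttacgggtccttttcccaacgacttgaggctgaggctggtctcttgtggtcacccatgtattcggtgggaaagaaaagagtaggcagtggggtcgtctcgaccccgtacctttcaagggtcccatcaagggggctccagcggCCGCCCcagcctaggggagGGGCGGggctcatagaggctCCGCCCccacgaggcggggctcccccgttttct
Optn: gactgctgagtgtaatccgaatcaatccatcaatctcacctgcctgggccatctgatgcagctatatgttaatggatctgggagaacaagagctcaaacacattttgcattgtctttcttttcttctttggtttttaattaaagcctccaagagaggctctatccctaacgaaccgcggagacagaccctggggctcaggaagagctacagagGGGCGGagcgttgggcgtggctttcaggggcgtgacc
Tecpr1: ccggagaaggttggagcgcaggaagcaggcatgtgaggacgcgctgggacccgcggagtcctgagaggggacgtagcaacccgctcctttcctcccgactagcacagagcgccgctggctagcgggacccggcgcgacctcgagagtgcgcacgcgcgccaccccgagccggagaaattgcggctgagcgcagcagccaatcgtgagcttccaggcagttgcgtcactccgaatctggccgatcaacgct
Uvrag: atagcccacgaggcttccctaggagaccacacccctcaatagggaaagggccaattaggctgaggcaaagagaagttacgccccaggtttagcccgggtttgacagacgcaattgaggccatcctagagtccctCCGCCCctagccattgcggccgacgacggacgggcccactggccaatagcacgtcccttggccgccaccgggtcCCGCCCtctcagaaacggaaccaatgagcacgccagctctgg
Gabarapl2: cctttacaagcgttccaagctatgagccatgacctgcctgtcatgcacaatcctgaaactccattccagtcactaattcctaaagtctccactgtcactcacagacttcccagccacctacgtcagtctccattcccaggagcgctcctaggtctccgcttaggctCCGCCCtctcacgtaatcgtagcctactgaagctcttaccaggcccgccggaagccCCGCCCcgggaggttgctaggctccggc

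Sqstm1 held 3 GC boxes in this window, Uvrag and Gabarapl2 2 each, Optn 1 and Tecpr1 none. GC content was 63.2% in Sqstm1, 66.8% in Tecpr1, 61.6% in Uvrag, 57.2% in Gabarapl2 and 50.0% in Optn. RefSeq gave windows of 300 bases, from 250 before to 50 after the start, for 31 of the 37 genes (36 windows), and for 27 of these genes a window started within 10 bp of the start in the table. The window of Atg7 started 27999 bp away and is not printed. Motifs were searched on both strands over the 300 bases. GGGCGG was in 19 of the 36 windows (52.8%) and in 32.7% of all 32851 windows. CACGTG, the E-box that TFEB and MITF family factors bind, was in 3 of 36 (8.33%; Atg3, Atg5 and Atg7) against 6.02%, and its extension TCACGTGA, which contains CACGTG, was in 1 (Atg3) against 0.785%. TCATGTGA was in none of the member windows and in 0.846% of all, and TGACNNNGC, the core of the antioxidant response element, was in 6 windows (Atg13, Tax1bp1, Ulk2 and 3 of Vmp1) against 10.2%. The Atg7 window with CACGTG is the one that starts away from the table's start, and the 5 printed windows hold neither CACGTG nor TGACNNNGC.

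Among the 5 genes of the initiation complex, which holds the kinases Ulk1 and Ulk2 and the scaffolds Atg13, Rb1cc1 and Atg101, none passed the test at the promoter or at distal regions. Promoter log2 changes ran from -0.33 to 0.20 with a median of -0.01. Ulk2 had the highest promoter level per region after Gabarap, with sums over 2 regions of 386 and 326 in WT and 270 and 293 in GrnKO (limma log2 change -0.33, SE 0.16, adjusted p = 0.283). Both GrnKO values of Ulk2 lay below both WT values, as at its distal regions, where the sums were 1184 and 1133 against 1127 and 1117 (limma log2 change -0.05). In the deposited scaling the order of the distal sums was reversed, at 977 and 1173 in WT and 1219 and 1208 in GrnKO. Distal log2 changes of the 4 initiation genes with a distal region ran from -1.35 to 0.29. The lowest of these came from Atg101, at levels of 3.59 scaled tags per region, which the inputs also reached.

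In the lipid kinase complex, with the kinase Pik3c3 (Vps34), its partner Pik3r4, Becn1 and the alternative subunits Atg14 and Uvrag, no promoter passed the test. Becn1 and Pik3c3 had the lowest promoter levels per region of all 37 genes. Becn1 held 5.48 and 21 in WT and 10.2 and 13.6 in GrnKO over 2 regions, with up to 22.5 deposited scaled tags in an input. Pik3c3 held 16.4 and 3.67 in WT and 8.20 and 3.00 in GrnKO, with up to 35.7 in an input. Neither promoter was above the highest input in any H3K27ac library. The other inputs held 0 at Becn1 and at most 3.12 at Pik3c3. At such levels a change was not detectable.

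Uvrag, the subunit of the late endosomal and autophagosome maturation form of the complex, had the most regions of the set. Over its 39 distal regions the sum was 1784 and 1623 in WT and 1288 and 1316 in GrnKO. Both GrnKO libraries lay below both WT libraries, with means of 1703 ± 114 and 1302 ± 19.9 (SD, n = 2), a ratio of 0.764 (limma log2 change -0.39, SE 0.10, adjusted p = 0.0181). Of its 32 tested distal regions 28 had a negative log2 change and none passed the test alone. In 14 of the 32 both GrnKO values were below both WT values and in 1 both were above, against 25.6% and 27% of all tested regions. Its strongest distal region, chr7:99133627-99134427 in intron 1 of 14 and chosen after its values were seen, held 213 and 229 in WT and 203 and 128 in GrnKO. At the promoter the sum was 336 and 288 in WT and 266 and 295 in GrnKO, which overlapped (limma log2 change -0.15, adjusted p = 0.706). The distal call was lost in the authors' own scaling (limma log2 change -0.16, adjusted p = 0.759) and without either GrnKO replicate. Atg14, the autophagosome initiation subunit, had a distal log2 change of 0.36 (limma adjusted p = 0.0903), with 407 and 387 in WT and 512 and 508 in GrnKO.

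**Figure D2:**
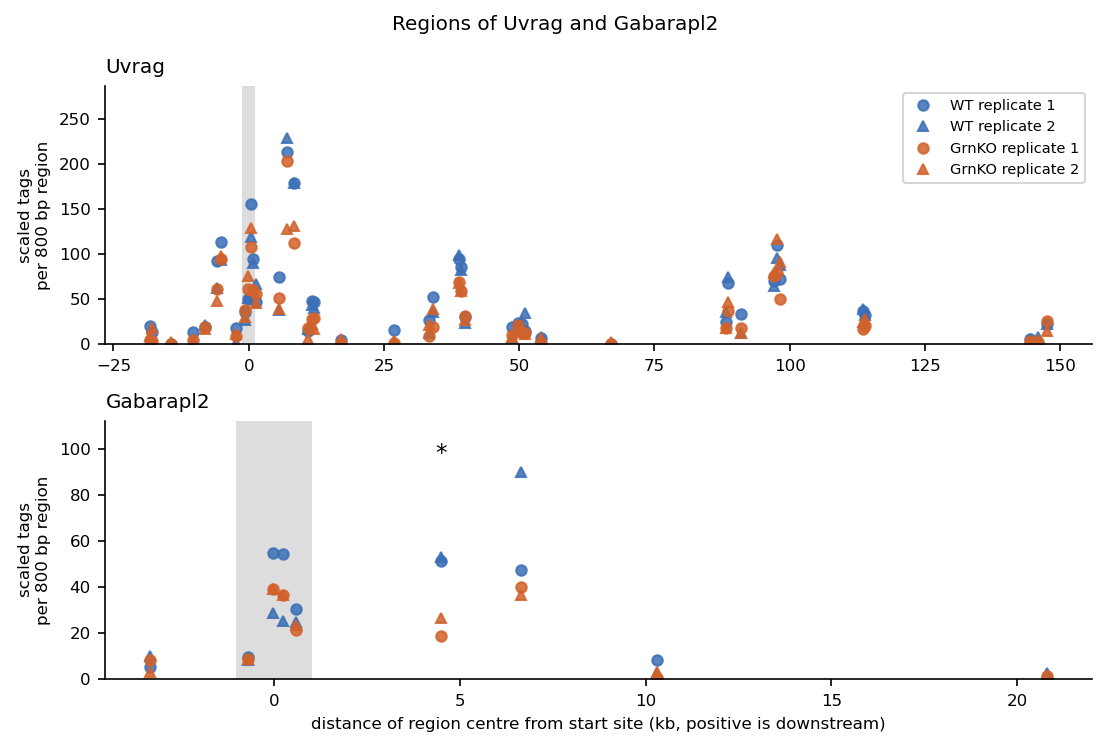
H3K27ac in each region of Uvrag and Gabarapl2 against the distance of its centre from the start site in kb, as scaled tags per 800 bp region. Symbols are as in the plot of levels, grey marks the promoter window of 1000 bp on each side and the asterisk marks a region with adjusted p under 0.05. GrnKO points lie under WT points in 14 of the 32 tested distal regions of Uvrag, and in the intronic regions of Gabarapl2 at 4484 and 6638 bp.

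The 6 genes of membrane supply and PI3P reading are the scramblase Atg9a, the lipid transfer proteins Atg2a and Atg2b, the PI3P binders Wipi1 and Wipi2, and Vmp1. None of the 6 passed the test at promoters, where log2 changes ran from -0.11 to 0.55, and no promoter sum separated the genotypes. Of the 4 with tested distal signal none passed either. Vmp1 had a distal log2 change of 0.70 (SE 0.29, limma adjusted p = 0.116), with 48.5 and 46.1 in WT and 76.9 and 77.7 in GrnKO, so the genotypes did not overlap. The other 3 held 2.13 to 4.35 scaled tags per distal region, and inputs reached or passed the lowest library at Atg9a and Wipi1.

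The conjugation genes gave 1 of the promoter calls and 1 of the distal calls, both in Atg7. Its promoter sum over 2 regions was 115 and 72.5 in WT and 282 and 237 in GrnKO. Both GrnKO values exceeded both WT values, with means of 93.6 ± 29.7 and 259 ± 31.7 (SD, n = 2; limma log2 change 1.49, SE 0.23, adjusted p = 0.000889; log2 change 1.82 without WT replicate 1). Inputs held at most 25.7 deposited scaled tags there. Over 10 distal regions the sum was 719 and 784 in WT and 1138 and 1080 in GrnKO, a 1.48-fold rise without overlap (limma log2 change 0.56, SE 0.11, adjusted p = 0.00513). With distal regions limited to 50000 bp from the start the log2 change was 1.57 (limma adjusted p = 3.5e-05). The distal call was lost without GrnKO replicate 1, with a log2 change of 0.52 there (limma adjusted p = 0.0997).

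Within Atg7 the higher signal was near the 5′ end of the gene. At chr6:114643495-114644295, centred 798 bp downstream of the start in intron 1 of 18, H3K27ac was 32.1 and 28.3 in WT and 171 and 159 in GrnKO (5.47-fold; limma log2 change 2.41, SE 0.25, adjusted p = 1.29e-05). At chr6:114644318-114645118, 1621 bp downstream in the same intron, it was 32.9 and 48.5 in WT and 154 and 120 in GrnKO (limma log2 change 1.74, adjusted p = 0.000373). The region on the start site itself, 29 bp from it, held 82.5 and 44.3 in WT and 111 and 78.0 in GrnKO, which overlapped (limma log2 change 0.61, adjusted p = 0.215). The promoter call therefore rested on the region 798 bp downstream: with a promoter window of 500 bp, which leaves that region out, the log2 change was 0.61 and the limma adjusted p 0.347. In all 5 of the 11 tested Atg7 regions rose, at 798 to 17015 bp from the start, and the 5 tested regions at 82202 to 139079 bp were not called. Of the 9 tested distal regions 3 had a negative log2 change. In 6 both GrnKO values were above both WT values and in 2 below, against 27% and 25.6% of all tested regions. The 3 other higher regions, at 5709, 16655 and 17015 bp, had log2 changes of 1.08, 2.13 and 1.86.

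The other 6 conjugation genes (the E2-like Atg3 and Atg10, the ubiquitin-like Atg12, its acceptor Atg5 and the membrane targeting partners Atg16l1 and Atg16l2) did not pass the test in either comparison. Atg16l2, a paralogue of Atg16l1, had a promoter sum of 43.4 and 69.7 in WT and 99.0 and 88.4 in GrnKO (limma log2 change 0.75, SE 0.29, adjusted p = 0.164). Its distal sum pointed the other way, with 490 and 665 in WT and 441 and 466 in GrnKO (limma log2 change -0.33, adjusted p = 0.179). Neither pair of groups overlapped with TMM factors. In the deposited scaling the distal sums overlapped, at 405 and 689 in WT and 477 and 504 in GrnKO (limma log2 change -0.11, adjusted p = 0.856). The 4 strongest of its distal regions lie 71608 to 74455 bp from the start, in intron 8 of 20 of Fchsd2. Atg16l1 had a distal log2 change of -0.80 (limma adjusted p = 0.140) at 3.40 scaled tags per region, which inputs also reached.

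The ATG4 proteases, which prime and remove ATG8 proteins, did not pass the test at the promoter, where log2 changes were -0.54 to 0.28 for Atg4b, Atg4c and Atg4d. Only Atg4c had tested distal signal, with a log2 change of 0.18 (limma adjusted p = 0.615). The input of WT replicate 1 held 279.5 deposited scaled tags over its 15 distal regions, more than any H3K27ac library. The other inputs held 27.8 to 36.7, less than any H3K27ac library.

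No promoter of the 5 ATG8 family genes passed the test. Gabarap had the highest promoter level per region of the whole set: its 2 regions summed to 480 and 476 in WT and 542 and 554 in GrnKO, against at most 0.535 in an input. Both GrnKO values were above both WT values (limma log2 change 0.20, SE 0.13, adjusted p = 0.463). Map1lc3b, which encodes LC3B, was likewise without overlap at its promoter, with a log2 change of 0.39 (limma adjusted p = 0.387). Its distal sum over 5 regions lay the other way, at 75.1 and 72 in WT against 64.2 and 46.1 in GrnKO, and did not pass the test (limma log2 change -0.43, adjusted p = 0.364). In the deposited scaling these distal sums overlapped, at 62.0 and 74.6 in WT and 69.4 and 49.9 in GrnKO.

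Gabarapl2 (GATE-16) was the member of the family whose lower distal signal passed the test. Over 5 distal regions it was 112 and 158 in WT and 68.7 and 69.7 in GrnKO. WT and GrnKO did not overlap, and the ratio of means (135 ± 32.6 and 69.2 ± 0.664, SD, n = 2) was 0.513 (limma log2 change -0.93, SE 0.26, adjusted p = 0.0269). One region passed the test alone, chr8:111944787-111945587 in intron 3 of 3, 4484 bp downstream of the start, with 51.2 and 52.9 in WT and 18.7 and 26.8 in GrnKO (limma log2 change -1.18, SE 0.35, adjusted p = 0.0389). It was the sole lower region among the 180 tested regions of the set in the limma fit. The region was not called with edgeR, with DESeq2, in the authors' scaling, with no filter or without either GrnKO replicate. The promoter sum overlapped, at 149 and 87.5 in WT and 106 and 108 in GrnKO (limma log2 change -0.10). The distal call was lost in the authors' scaling (limma log2 change -0.71, adjusted p = 0.127). It was also lost without WT replicate 2 and without GrnKO replicate 1 or 2 (limma log2 changes -0.68, -0.92 and -0.94).

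Sqstm1, which encodes p62, was the cargo receptor whose distal signal rose. Its distal signal over 12 regions was 253 and 195 in WT and 738 and 696 in GrnKO. Even the lowest GrnKO library was far above the highest WT library, and the means of 224 ± 41.1 and 717 ± 29.8 (SD, n = 2) differed 3.20-fold (limma log2 change 1.69, SE 0.16, adjusted p = 5.14e-05). Inputs reached 39.2 deposited scaled tags. The call was kept under each alternative run, with log2 changes from 1.39 to 1.91.

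The rise at Sqstm1 came from a stretch just upstream of the gene. At chr11:50213249-50214049, intergenic and centred 2829 bp upstream, H3K27ac was 106 and 79.9 in WT and 300.1 and 299 in GrnKO (limma log2 change 1.69, SE 0.19, adjusted p = 2.12e-05). At chr11:50212779-50213579, 2359 bp upstream and overlapping the first, it was 87.2 and 55.0 in WT and 270 and 242 in GrnKO (limma log2 change 1.87, adjusted p = 3.99e-05). A further region 1301 bp upstream rose by a log2 change of 2.54, from 14.9 and 28.3 to 127 and 121. None of these overlaps a RefSeq gene, and the nearest other gene within 10 kb is the lncRNA Gm36556. The distal region 6327 bp upstream held 18 and 8.90 in WT and 14.1 and 12.2 in GrnKO (limma log2 change 0.05), and the 8 distal regions downstream of the start held under 11 scaled tags in every library.

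At the Sqstm1 promoter the sum over 2 regions was 172 and 200.1 in WT and 292 and 270 in GrnKO, again without overlap, a 1.51-fold difference that missed the threshold (limma log2 change 0.60, SE 0.18, adjusted p = 0.0621). Of the 2, the region stronger over both genotypes together, though not in WT alone, was chr11:50210689-50211489, centred 269 bp upstream. This region holds the printed promoter window and passed the test in the fit of single regions: 88.0 and 93.8 in WT and 171 and 155 in GrnKO (limma log2 change 0.83, SE 0.20, adjusted p = 0.0124). The other, 618 bp downstream in intron 1 of 7, held 83.7 and 106 in WT and 121 and 115 in GrnKO (limma log2 change 0.32). The promoter sum passed with DESeq2, without WT replicate 2, with non-overlapping regions and with promoter windows of 500 or 2500 bp (adjusted p = 0.0357, 0.00363, 0.0136, 0.0400 and 4.24e-05).

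**Figure D3:**
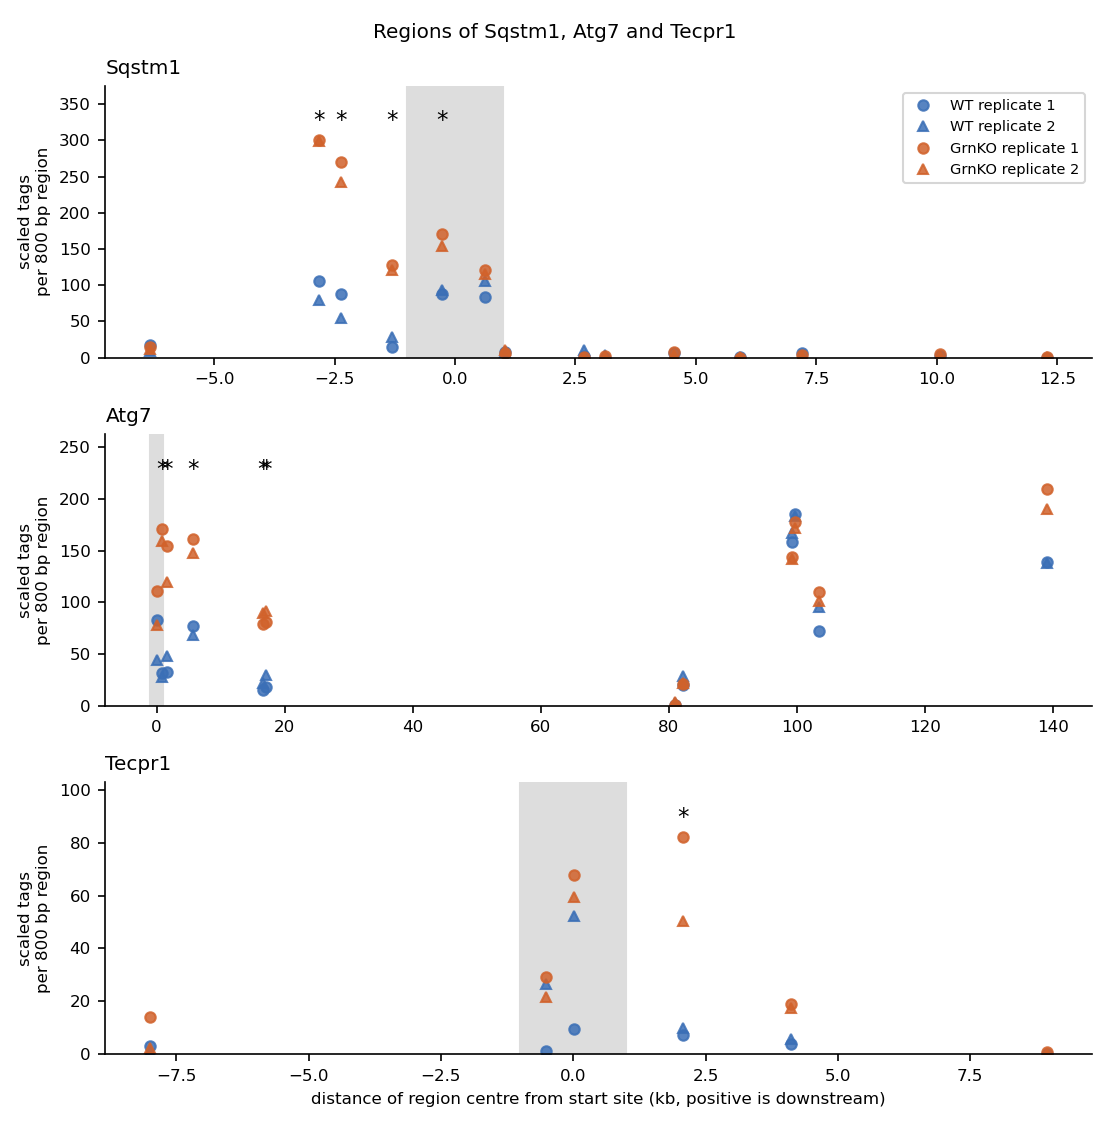
H3K27ac in each region of Sqstm1, Atg7 and Tecpr1 against the distance of its centre from the start site in kb, as scaled tags per 800 bp region. Symbols and grey band are as in the plot of Uvrag and Gabarapl2, and asterisks mark regions with adjusted p under 0.05. GrnKO points lie above WT points in the Sqstm1 regions 1301 to 2829 bp upstream, in the 5 Atg7 regions at 798 to 17015 bp and at 2081 bp in Tecpr1.

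Optn had the largest relative change among the promoters of the autophagy genes in the fit of all libraries, at a low level. Its single promoter region, chr2:5063673-5064473, centred 44 bp downstream of the start, held 6.65 and 11 in WT and 31.4 and 39.9 in GrnKO, from 8.5 and 21 tags in WT and 55.5 and 86.5 in GrnKO. Both GrnKO libraries were above both WT libraries (means 8.82 ± 3.08 and 35.7 ± 6.02, SD, n = 2; limma log2 change 1.93, SE 0.51, adjusted p = 0.0355; log2 change 1.60 without WT replicate 1). WT signal was not above the highest input, at 12.3 deposited scaled tags, while the other inputs held at most 2.08. The call was lost without either GrnKO replicate (limma adjusted p = 0.290 and 0.472) and without the filter on low tags (0.0724). In the fit of all regions the same region passed (limma adjusted p = 0.0149), and that call too was lost without either GrnKO replicate.

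The receptors Tax1bp1, Nbr1 and Calcoco1 did not pass the test at promoters. Nbr1, a p62 partner, had 148 and 102 in WT and 83.7 and 107 in GrnKO at its promoter (limma log2 change -0.37, adjusted p = 0.486). Its single distal region held 12.5 and 10.5 in WT and 1.41 and 1.38 in GrnKO, in GrnKO from 2.5 and 3 tags and so at or under the floor, while an input reached 22.4 (limma adjusted p = 0.0799). Tax1bp1 had a promoter log2 change of 0.27 without overlap (limma adjusted p = 0.566). Calcoco1 held 7.38 to 17.8 at its promoter in the H3K27ac libraries, against up to 71.1 deposited scaled tags in an input.

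Tecpr1, a tethering factor that links autophagosomes to lysosomes through PI3P and the Atg5-Atg12 conjugate, had the largest distal rise of the set. Its 4 distal regions summed to 14.1 and 16.8 in WT and 116 and 70.4 in GrnKO. Both genotypes were well apart, and the means of 15.4 ± 1.90 and 93.3 ± 32.4 (SD, n = 2) differed 6.05-fold (limma log2 change 2.48, SE 0.38, adjusted p = 0.00106; log2 change 2.36 without WT replicate 1). Most of it was at chr5:144221134-144221934, 2081 bp downstream of the start in intron 1 of 24, which held 7.04 and 9.95 in WT and 82.3 and 50.5 in GrnKO (7.82-fold; limma log2 change 2.80, SE 0.42, adjusted p = 0.000339). Inputs held at most 2.77 there. With a promoter window of 2500 bp, which takes this region out of the distal sum, the distal log2 change was 1.77 (limma adjusted p = 0.0462). At the promoter the WT replicates disagreed, at 10.6 and 79.1 against 97.0 and 81.2 in GrnKO (limma log2 change 1.56, SE 0.57, adjusted p = 0.136), and without WT replicate 1 the log2 change was 0.16. Without WT replicate 2 it was 2.96, so that the promoter value turned on which WT library was kept. The promoter sum passed with the replicate block and with the window of 2500 bp, which takes in the region at 2081 bp (limma log2 change 1.92, adjusted p = 0.0187). It did not pass with edgeR or DESeq2, with lower log2 changes of 0.96 and 0.99.

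In the fit of single regions 13 of the 180 tested member regions rose (7.22%, against 6.8% of 80721 regions) and 1 fell (0.556%, against 2.92%). The 13 regions formed 11 separate stretches and lay in 6 genes, with 5 regions in Atg7, 4 in Sqstm1 and 1 each in Tecpr1, Optn, Atg14 and Pik3c3. The last 2, whose genes were not called and which are named after their values were seen, were 16887 bp downstream of the start in intron 4 of 9 of Atg14 (limma log2 change 1.27, adjusted p = 0.0352) and 172654 bp from Pik3c3 between genes (limma log2 change 1.71, adjusted p = 0.0494). The region of Atg14 was not called with edgeR, DESeq2 or no filter, that of Pik3c3 not with DESeq2 size factors or no filter, and neither without either GrnKO replicate. In either direction 9.72% of all regions were called. The share of higher regions was near the background, and Atg7 and Sqstm1 held most of them.

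Without a threshold, both GrnKO libraries lay above both WT libraries at 10 of 37 promoters (27%, against 23.5% of all tested promoters) and below both at 2 (5.41%, against 24.6%). The 10 were Atg7, Optn, Sqstm1, Tecpr1, Atg16l2, Atg101, Atg4c, Map1lc3b, Gabarap and Tax1bp1, and the 2 were Ulk2 and Atg16l1. For distal sums 7 of 26 were above (26.9%, against 27.4%) and 8 below (30.8%, against 30.7%). At 8 of 37 promoters and at 10 of 26 tested distal sums the highest input exceeded the lowest H3K27ac library in the deposited scaling, so that signal there did not stand above the background of the assay in every library.

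Distal and promoter signal of a gene were then compared within each library for the 26 genes tested in both. Sqstm1 was the 1 member whose changes differed: its distal log2 change exceeded its promoter log2 change by 1.09 (SE 0.22, limma adjusted p = 0.0295), against 1.32% of 7324 genes called in that direction and 0.478% in the other (1.8% in all). This call depends on how the model was set. A first form of the fit, in which the variance trend followed the mean difference, called no member (limma adjusted p = 0.287 for Sqstm1) and 2 of 7324 genes. It was replaced after those results were seen. The simulations of the final run used the replacement form only, so they cannot compare the 2 forms. The call was also lost with promoter windows of 500 or 2500 bp (differences of 0.55 and 0.20), with non-overlapping regions (limma adjusted p = 0.0607) and without either GrnKO replicate. Atg16l2 had a difference of -1.09 (limma adjusted p = 0.0990) and Atg7 of -0.93 (limma adjusted p = 0.113), neither past the threshold.

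**Figure D4:**
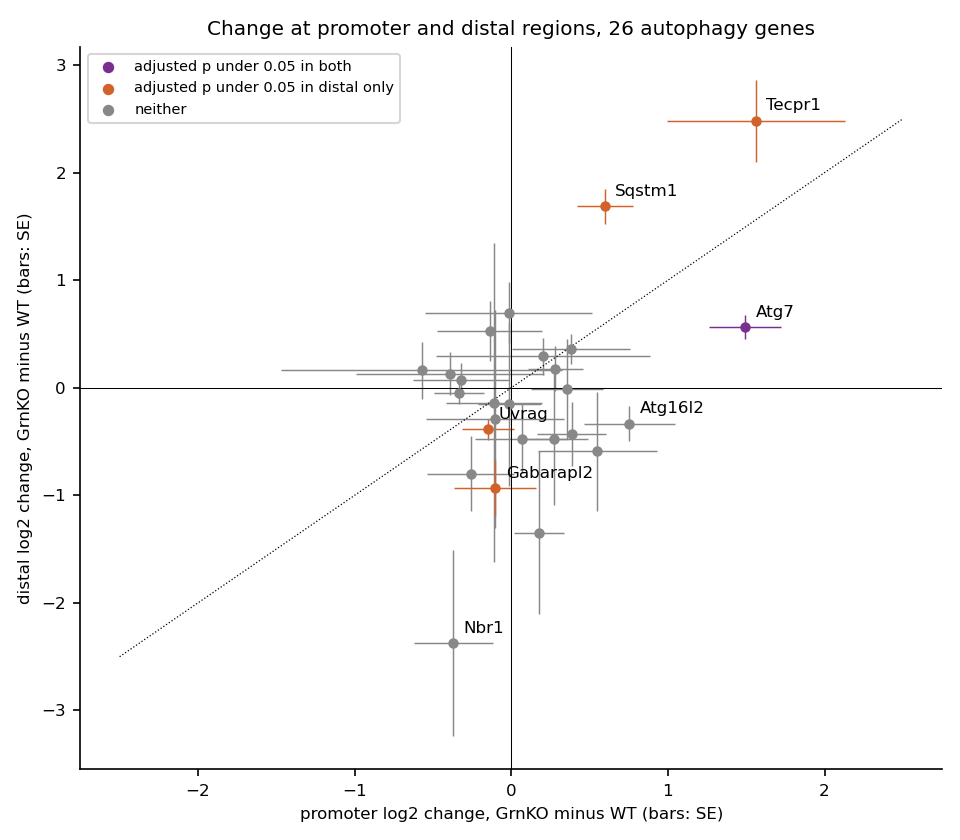
Distal against promoter log2 change (GrnKO minus WT) of the 26 autophagy genes tested in both, with bars of 1 standard error and a dotted line of equal change. Atg7 passed in both, Sqstm1, Tecpr1, Uvrag and Gabarapl2 in distal signal alone, and grey genes in neither. Sqstm1 lies above the line at 0.60 and 1.69, and Atg7 below it at 1.49 and 0.56.

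Beside the 37 genes, 40 further genes of the pathway were read from the same fits. At promoters 1 of 37 tested rose, Vps18, a subunit of the HOPS tether, with 348 and 349 in WT and 495 and 507 in GrnKO (limma log2 change 0.52, adjusted p = 0.0368), and none fell, against 3.57% and 1.66% of all tested genes. At distal regions 6 of 30 tested rose and 1 fell, against 10.9% and 7.13%. Higher were Trp53inp2, a nuclear partner of LC3 (limma log2 change 1.31), Plekhm1, a Rab7 effector in lysosome fusion (1.31), Ambra1, a Becn1 regulator (1.02), Bnip3l, the mitophagy receptor NIX (0.85), Sh3glb1 (0.32) and Wdfy3 (0.31). Tbk1, the kinase that phosphorylates optineurin and p62, was lower, with 1106 and 1127 in WT and 814 and 794 in GrnKO (limma log2 change -0.47, SE 0.11, adjusted p = 0.0104). In the authors' scaling the directions were kept, and Vps18, Sh3glb1, Wdfy3 and Tbk1 were no longer past the threshold (limma adjusted p = 0.0824, 0.173, 0.150 and 0.585).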

How the data were processed

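H3K27ac ChIP-seq and input were measured in pools of sorted nuclei. Per the submitters' processing notes, Bowtie2, HOMER, DESeq2 and the build mm10 were used; versions and the handling of duplicate reads are not given in the sources used here. Per the file headers, the deposited signal is tags in 800 bp regions of merged ATAC-seq peaks, scaled by the authors to 10000000 tags per library. Multiplying by the library total gave whole read ends (2 per tag) for 100% of values, within a tolerance of 0.005 scaled tags. A tag in overlapping regions is counted in each.

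Tags were summed per gene over promoter regions (within 1000 bp of the start) and over distal regions. All features with at least about 10 tags in any 2 of the 4 H3K27ac libraries, whatever their genotype, were kept (edgeR 4.0.16 filterByExpr). They were fitted across these libraries with limma 3.58.1 in R 4.3.3 (lmFit, eBayes with trend, two-sided) on log2(scaled tags + 1) with TMM factors. Genotype was the only term, with Benjamini-Hochberg adjustment at 0.05 over all features. The log2(value + 1) scale understates changes of low values. The recovered ends went to edgeR's quasi-likelihood test and DESeq2 1.42.0 as alternatives, in which both ends of a fragment count although they are not independent. Other alternatives changed the scaling, filter, pseudocount, promoter window, overlapping regions, distal reach and libraries.

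For the difference of distal and promoter change, the variance trend was first put on the mean difference. After its results on the real data had been seen, the trend was put on the lower of both mean levels, and the first form was kept as an alternative. The fits were tested on simulated tags, this difference in its final form only and with both parts drawn independently.

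The members and lists were chosen with earlier results of these data known. Library values are given for members past the threshold in the promoter, distal or distal-minus-promoter fit as reported, for those with the smallest unadjusted p until 8 were given, and for the 2 highest and the 2 lowest promoters per region. Single regions are the 6 with the smallest p in each direction, at most 2 per gene, and the Sqstm1 promoter region strongest over both genotypes together. Others were chosen after their values were seen. Replicates are separate pools of 2 mice. Replicate numbers come from titles and were not taken as pairs. With 2 libraries a genotype an exact permutation test cannot reach the threshold. Floors cover counting error only.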

Additional observations from a re-analysis of the deposited data

Results flagged for a closer look

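At Sqstm1 the distal change exceeded the promoter change by 1.09 on the log2 scale (SE 0.22, limma adjusted p = 0.0295), a difference between 2 sets of regions of the same gene under the same contrast of genotypes. It was singled out because the test of the difference itself passed. The regions that differ most lie 1301 to 2829 bp upstream of the start, close to the promoter window of 1000 bp. With a window of 2500 bp, which takes 2 of them into the promoter sum, the difference was 0.20 (limma adjusted p = 0.706). The call was also lost with a window of 500 bp and with non-overlapping regions (limma adjusted p = 0.297 and 0.0607), and without either GrnKO replicate. The first form of the fit, replaced after its results were seen, did not call it either (limma adjusted p = 0.287).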

How the results depend on the processing

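Of 425 values recomputed under alternatives, 353 kept their direction and side of the threshold or, for counts, stayed within 1.5 times. The cause of the others was not tested except where the setting itself removes regions or libraries. Promoter members higher (2 as reported) were 1 with no filter, 4 with the replicate block, 4 with a 2500 bp window and 1 to 6 when a library was left out (6 without WT replicate 2, 1 without GrnKO replicate 1). Over all tested promoters the share higher also moved, from 3.57% to 2.29%, 5.65% and 4.66% in those 3 settings, 8.11% without WT replicate 2 and 1.03% without GrnKO replicate 1. Distal members higher (3) were 2 to 4 when a library was left out. Distal members lower (2) were 0 in the authors' scaling and 0 to 3 when a library was left out (0 without either GrnKO replicate, 1 without WT replicate 2). Of all distal sums 7.13% were lower as reported, 1.13% in the authors' scaling, and 1.58%, 3.61% and 9.14% without GrnKO replicate 1, GrnKO replicate 2 and WT replicate 2. Member regions higher (13) were 8 to 20 when a library was left out (20 without WT replicate 2, 8 without GrnKO replicate 1). These were 10.4% and 3.77% of the member regions tested, against 10.4% and 1.86% of all regions. Member regions lower (1) were 0 in the authors' scaling, with edgeR and with no filter, 1 at Nbr1 in place of Gabarapl2 with DESeq2, 2 with the replicate block and 0 to 7 when a library was left out. For distal minus promoter change, members higher (1) were 0 with windows of 500 and 2500 bp, with non-overlapping regions and with the trend on the mean difference, and 0 to 2 when a library was left out; members lower (0) were 2 with the replicate block, 1 with a 2500 bp window and 0 to 3 when a library was left out. Over all genes tested for that difference 1.32% were higher and 0.478% lower as reported, and 0.0273 to 5.68% and 0 to 4.85% over these alternatives. At Atg7 that difference turned from -0.93 to 0.094 with a 500 bp window, 0.031 with non-overlapping regions and 0.075 with distal regions within 50000 bp. The authors' scaling moved the median log2 change of all genes to 0.20 at promoters and 0.16 at distal sums, and the calls over all genes from 396 higher and 184 lower to 397 and 20 at promoters and from 1242 and 810 to 1448 and 129 at distal sums. Where a library was left out, the lone sample of its genotype was assumed to vary like the other 2. Same-numbered libraries deviated together weakly (r = 0.059 at promoters, 0.030 at distal sums), and the numbers were not taken as pairs. Summed over 32 regions on chromosome Y, deposited scaled tags were 131 and 138 in replicate 1 of WT and GrnKO and 403 and 306 in replicate 2 (inputs 121 and 154, 231 and 297). The labels used here do not give the sex of the pools, and its part in the results was not tested. Among gene sums and differences, the replicate block changed no call of a member other than the promoter sums of Sqstm1 and Tecpr1 and the differences of Atg16l2 and Atg7, which it added. In single regions it gave 17 higher and 2 lower (9.44% and 1.11%, against 9.17% and 4.94% of all regions), with regions of Map1lc3a and Uvrag among those added. With 2 libraries a genotype and low tags at many regions, changes at regions near input are not detectable.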
